A study of Mus musculus with 7 samples.

Results

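Insulin receptor signalling genes were followed in 3T3-L1 adipocytes, an established mouse cell line that turns from fibroblast-like pre-adipocytes into fat cells. The 10 genes, the members below, were Insr, Grb14, Irs1, Irs2, Pik3r1, Pik3ca, Pik3cb, Akt1, Akt2 and Foxo1, picked by symbol out of 18820 genes that the array annotation names by 1 symbol. Insr and Akt2 had 2 transcript clusters each (a cluster is the array's group of probes for a transcript), and the cluster that was brighter on average was used. The SCD inhibitor group of 3 arrays had received an inhibitor of stearoyl-CoA desaturase (SCD), which turns saturated into monounsaturated fatty acids, at 1 µM, and the DMSO group of 4 arrays an equal volume of the solvent. Both groups were differentiated alike, with a 2-day pulse of human insulin, dexamethasone and isobutylmethylxanthine and then human insulin alone, so every sample was under insulin, and RNA was taken on day 7. The inhibitor goes by no name in the labels and all cells are of 1 line. Whether replicates were separate cultures is not stated, so a p-value here reflects spread between samples that may be no more than technical.

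Insulin binds its receptor, a tyrosine kinase, which phosphorylates the adaptor proteins IRS1 and IRS2. These recruit PI3-kinase, a regulatory subunit bound to a catalytic subunit, whose lipid product activates the kinase AKT. In fat cells AKT2 sends glucose transporters to the cell surface, and AKT phosphorylation keeps the transcription factor FOXO1 out of the nucleus.

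Values are RMA expression levels on the log2 scale, and differences are SCD inhibitor minus DMSO. Levels of different genes are not ranked against each other, since each rests on its own probes. Ranges and sums of marker levels are given as description only, and brighter genes weigh more in a sum. Genes with an adjusted p under 0.05 in limma, adjusted by Benjamini-Hochberg over all 18820 genes, are referred to as called or as having passed. Pairs of arrays within a group had correlations of 0.9990 to 0.9995 and pairs across groups 0.9968 to 0.9975. The 11 measured adipocyte markers had mean levels of 10.14 to 12.71 and their median difference was 0.01, with only Slc2a4 called, a decrease. The 8 macrophage, 6 endothelial and 6 skeletal muscle markers had mean levels of 3.11 to 6.20, and none of them was called by limma, while 1 of these 20 (Lyz2) had an unadjusted p under 0.05.

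With the inhibitor, the transcript of the adaptor Irs1 rose, and that of the transcription factor Foxo1 and the brighter of 2 clusters annotated as the kinase Akt2 fell, all by at most 1.23-fold. That cluster may not measure Akt2, since its place in the array's numbering is not that of the gene, and for the other Akt2 cluster, at -0.08, the adjusted p in limma was 0.195. Irs1 was 1.18-fold higher (log2 0.24, SE 0.053), the brighter Akt2 cluster was 1.11-fold lower (log2 -0.15, SE 0.032) and Foxo1 was 1.23-fold lower (log2 -0.30, SE 0.065). The other 7 genes, among them the receptor itself and the 3 PI3-kinase subunits of the set, did not pass. Thus 3 of 10 genes were called, against 8.00% of all genes, 1 of them higher (3.62% of all genes) and 2 lower (4.37%). All 10 had mean levels of 7 or above, and of the 7278 genes at such levels 16.3% were called. With the dimmest 25% or 50% of genes dropped before the fit, 12.6% and 21.1% of the remaining genes were called, and still 3 of the 10. The arrays of the groups did not overlap for 4 of the 10, the same 3 and Grb14, against 17.3% of all genes, with 1 wholly higher (8.30% of all genes) and 3 wholly lower (9.02%). The share not overlapping was not taken among genes at levels of 7 or above. Fewer of those hold a value repeated on 3 or more arrays (32.0%, against 54.6% of all genes). The median difference of the 10 genes was 0.02 and that of all genes -0.00. The 3 calls had adjusted p of 0.0391, 0.0383 and 0.0396 in limma and did not hold in most fits without 1 array, as given gene by gene below.

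The promoters of Irs1, Akt2 and Foxo1 are shown because clusters annotated as these genes were called, and that of Irs2 as the paralog of Irs1 that was not. The called Akt2 cluster may not measure Akt2, so the promoter shown may not belong to the called value. Each is the run of 250 bases just before the gene's most upstream annotated start in RefSeq (GRCm38.p6), written 5′ to 3′ along the gene. That of Irs1 is chr1:82291440-82291689 on the minus strand, that of Irs2 chr8:11008930-11009179 on the minus strand, that of Akt2 chr7:27591302-27591551 on the plus strand and that of Foxo1 chr3:52268087-52268336 on the plus strand. Capitals mark the GC box GGGCGG and the E-box CACGTG, searched on both strands, which overlapped nowhere in these 4 windows.
Irs1: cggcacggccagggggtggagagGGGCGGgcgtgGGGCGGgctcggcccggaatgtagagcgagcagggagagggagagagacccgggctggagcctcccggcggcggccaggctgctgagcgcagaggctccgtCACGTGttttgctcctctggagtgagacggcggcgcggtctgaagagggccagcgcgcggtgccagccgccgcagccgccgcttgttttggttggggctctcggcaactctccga
Irs2: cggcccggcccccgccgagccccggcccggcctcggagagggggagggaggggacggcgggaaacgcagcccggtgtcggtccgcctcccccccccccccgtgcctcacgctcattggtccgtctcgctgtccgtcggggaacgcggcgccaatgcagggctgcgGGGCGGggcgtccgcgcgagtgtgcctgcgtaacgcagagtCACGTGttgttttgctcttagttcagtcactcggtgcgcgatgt
Akt2: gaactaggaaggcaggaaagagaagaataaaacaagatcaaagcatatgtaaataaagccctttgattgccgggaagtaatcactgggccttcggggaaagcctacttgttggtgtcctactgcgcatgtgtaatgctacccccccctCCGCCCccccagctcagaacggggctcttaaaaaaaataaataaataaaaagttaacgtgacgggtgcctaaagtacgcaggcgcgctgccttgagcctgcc
Foxo1: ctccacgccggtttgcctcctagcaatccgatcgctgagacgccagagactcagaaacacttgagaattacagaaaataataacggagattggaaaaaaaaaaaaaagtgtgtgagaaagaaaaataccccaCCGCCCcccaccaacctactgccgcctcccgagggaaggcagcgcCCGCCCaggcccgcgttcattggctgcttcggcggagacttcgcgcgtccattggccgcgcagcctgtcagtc

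A promoter was found for 9 of the 10 genes. In the most upstream window 8 of 9 held a GC box, against 32.7% of all 32841 promoter windows of this length, and GC content ran from 48.8% in Akt2 to 78.0% in Pik3cb, against a median of 52.4% over all windows. All windows here means every window of a gene, not 1 per gene, so the shares are not of like windows. The 9 genes had 14 windows in all, and the further ones of Akt2 and Pik3r1 held no GC box while that of Akt1 held 4. Both IRS genes, the one that rose and the one that did not pass, held 1 E-box, which 6.02% of all windows had. The FOXO motif TGTTTAC occurred in 1 of these 9 windows, that of Akt1, and in 3.17% of all windows. The sterol element TCACNCCAC and the cAMP element TGACGTCA were in none of the 9 and in 1.05% and 1.55% of all windows. These matches describe letters in the window and no binding was measured.

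**Figure D1:**
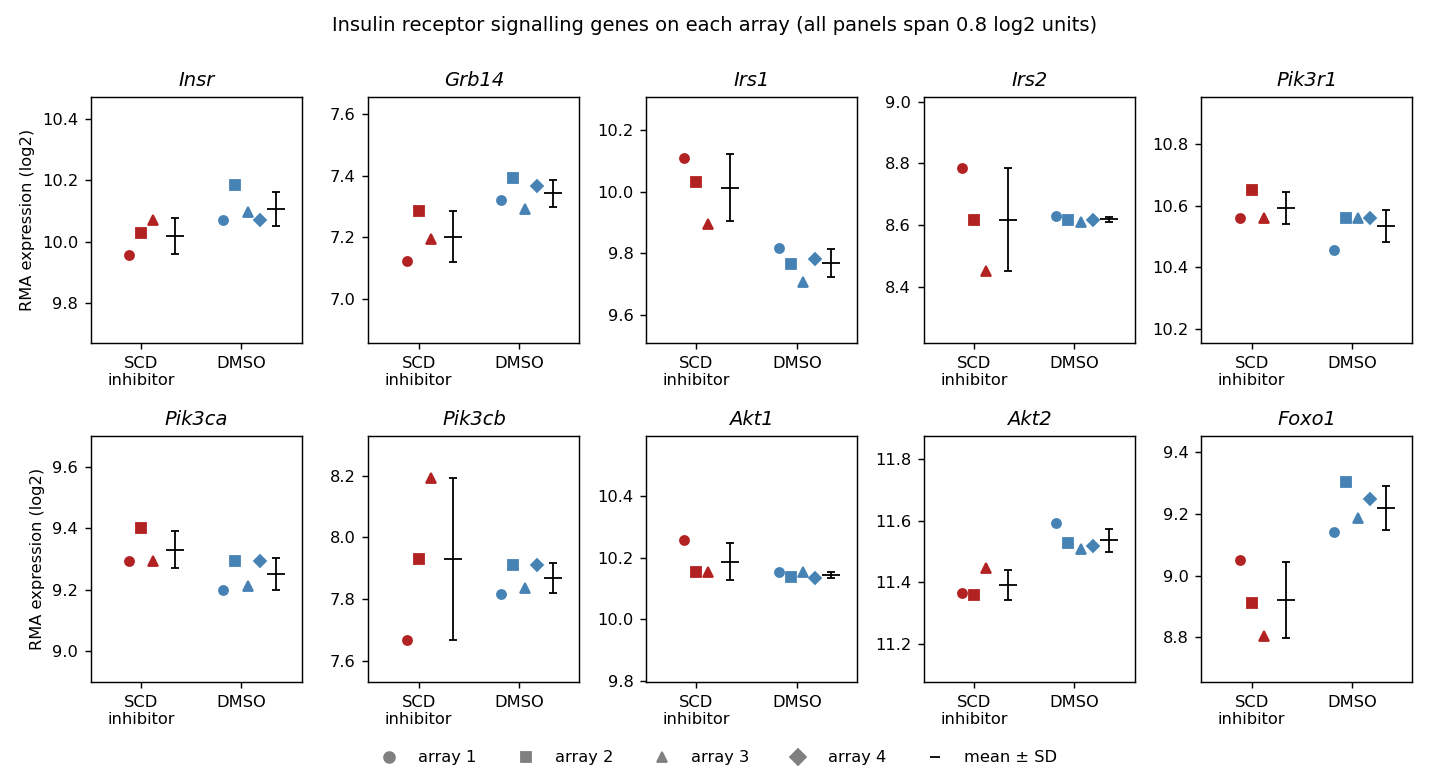
RMA expression (log2) of the 10 genes on each array, SCD inhibitor (red, 3 arrays) and DMSO (blue, 4 arrays), with the mean ± SD in black and a marker shape for each replicate number. Irs1 lies higher and Akt2, Foxo1 and Grb14 lie lower on every inhibitor array than on any DMSO array, while Irs2 and Pik3cb spread widely on the inhibitor arrays only.

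At the level of the receptor, Insr (chr8:3150922-3279649), which encodes the insulin receptor, read 9.96, 10.03 and 10.07 on the inhibitor arrays and 10.07, 10.19, 10.10 and 10.07 on the DMSO arrays. The highest inhibitor array equalled the lowest DMSO arrays, so the groups touched. Its difference of -0.09 (95% interval -0.18 to 0.01) did not pass (adjusted p = 0.271 in limma). A second, dimmer cluster of Insr averaged 9.48 ± 0.014 (SD, n = 3) with the inhibitor and 9.52 ± 0.057 (SD, n = 4) in DMSO, a difference of -0.04 that did not pass either.

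Grb14 (chr2:64912476-65022766) encodes an adaptor that binds the activated insulin receptor and inhibits its kinase. Its levels were 7.12, 7.29 and 7.20 with the inhibitor and 7.32, 7.39, 7.29 and 7.37 in DMSO. All inhibitor arrays lay below all DMSO arrays, but inhibitor array 2 and DMSO array 3 differed by less than 0.01. The difference of -0.14 (SE 0.044) did not pass (unadjusted p = 0.0158, adjusted p = 0.122 in limma). It passed in 1 of 18 alternatives, a further quantile normalization (adjusted p = 0.0287 in limma).

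Of the adaptors, Irs1 (chr1:82233105-82291439) links the receptor to PI3-kinase in fat and muscle. It read 10.11, 10.03 and 9.89 on the inhibitor arrays and 9.82, 9.76, 9.71 and 9.78 on the DMSO arrays. All inhibitor arrays were higher, array 1 the most and array 3 the least. The means were 10.01 ± 0.11 (SD, n = 3) with the inhibitor and 9.77 ± 0.046 (SD, n = 4) in DMSO, with a 95% interval of the difference from 0.12 to 0.37. Its adjusted p in limma was 0.0867 without SCD inhibitor 1 and 0.13 without SCD inhibitor 2, while with DMSO 1, 2, 3 or 4 left out it was 0.0782, 0.106, 0.111 and 0.106 in that order. Only the fit without SCD inhibitor 3 kept the call among those without 1 array (adjusted p = 0.0169 in limma), and the difference stayed between 0.20 and 0.30 in all 7.

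Irs2 (chr8:10984681-11008929), the other main adaptor, did not pass. Its inhibitor arrays read 8.79, 8.62 and 8.45 and its DMSO arrays 8.63, 8.62, 8.61 and 8.62. The DMSO arrays lay almost on one value, and the inhibitor arrays lay on it, above it and below it. The SD was 0.17 with the inhibitor (n = 3) and 0.0083 in DMSO (n = 4), whereas over all genes the median SD was 0.048 with the inhibitor and 0.047 in DMSO. The group means were both 8.62 and the difference was -0.00 (95% interval -0.17 to 0.17, adjusted p = 0.995 in limma), an interval that still includes changes as large as 0.17.

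For PI3-kinase, the regulatory subunit Pik3r1 (chr13:101680761-101768217), which encodes p85α, read 10.56, 10.65 and 10.56 with the inhibitor and 10.46, 10.56, 10.56 and 10.56 in DMSO. The same deposited value stood on 5 of the 7 arrays, so the groups overlapped. Pik3ca (chr3:32397065-32466112), the catalytic subunit p110α that carries most insulin signals, read 9.29, 9.40 and 9.29 with the inhibitor and 9.20, 9.29, 9.21 and 9.29 in DMSO. Here 4 arrays, of both groups, had 1 value. The differences of 0.06 for Pik3r1 (95% interval -0.03 to 0.14) and 0.08 for Pik3ca (95% interval -0.01 to 0.17) did not pass (adjusted p = 0.443 and adjusted p = 0.309 in limma).

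Pik3cb (chr9:99038402-99140235), the catalytic subunit p110β, was the most uneven of the 10 genes on the inhibitor arrays, at 7.67, 7.93 and 8.19. Its DMSO arrays read 7.82, 7.91, 7.83 and 7.91. The inhibitor arrays reached below and above all DMSO arrays. The difference of 0.06 had the widest interval of the 10 (-0.21 to 0.34) and did not pass (adjusted p = 0.789 in limma).

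Of the AKT kinases, Akt1 (chr12:112653821-112674884) serves growth and survival in many tissues. It read 10.26, 10.15 and 10.15 with the inhibitor and 10.15, 10.14, 10.15 and 10.13 in DMSO. Inhibitor array 1 alone stood higher, and the other 2 shared their value with 2 DMSO arrays. The difference of 0.04 (95% interval -0.03 to 0.11) did not pass (adjusted p = 0.457 in limma).

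Akt2 (chr7:27591552-27640826), the main AKT form in insulin-stimulated glucose uptake, read 11.37, 11.36 and 11.45 with the inhibitor and 11.59, 11.53, 11.51 and 11.52 in DMSO. Every inhibitor array was lower, array 3 the least so. The means were 11.39 ± 0.049 (SD, n = 3) with the inhibitor and 11.54 ± 0.037 (SD, n = 4) in DMSO, with a 95% interval of the difference from -0.22 to -0.07. The second, dimmer Akt2 cluster read 10.94, 10.97 and 11.03 with the inhibitor and 11.10, 11.04, 11.07 and 11.03 in DMSO. There the groups touched and the difference of -0.08 did not pass (adjusted p = 0.195 in limma), so the call rests on 1 of the 2 clusters. The number of the brighter cluster lies between those of clusters for genes of chromosome 11, not 7, so the called value may not be that of Akt2, which was not tested, as probe sequences were not used here. Without 1 array, the call of the brighter cluster held only without SCD inhibitor 3 (adjusted p = 0.0325 in limma). The adjusted p in limma was 0.107 without SCD inhibitor 1 and 0.122 without SCD inhibitor 2, while with DMSO 1, 2, 3 or 4 left out it was 0.0702, 0.0917, 0.0767 and 0.0894 in that order.

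Foxo1 (chr3:52268337-52350109) encodes the transcription factor that insulin restrains through AKT and that takes part in fat cell differentiation. It read 9.05, 8.91 and 8.80 on the inhibitor arrays and 9.14, 9.30, 9.19 and 9.25 on the DMSO arrays. All inhibitor arrays were lower than all DMSO arrays. The means were 8.92 ± 0.12 (SD, n = 3) with the inhibitor and 9.22 ± 0.072 (SD, n = 4) in DMSO, and the 95% interval of the difference ran from -0.46 to -0.14, the difference furthest from 0 among the 10 genes. Without 1 array, the call held only without SCD inhibitor 1 (adjusted p = 0.0266 in limma). Its adjusted p in limma was 0.127 without SCD inhibitor 2 and 0.106 without SCD inhibitor 3, while with DMSO 1, 2, 3 or 4 left out it was 0.0672, 0.104, 0.0978 and 0.121 in that order.

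**Figure D2:**
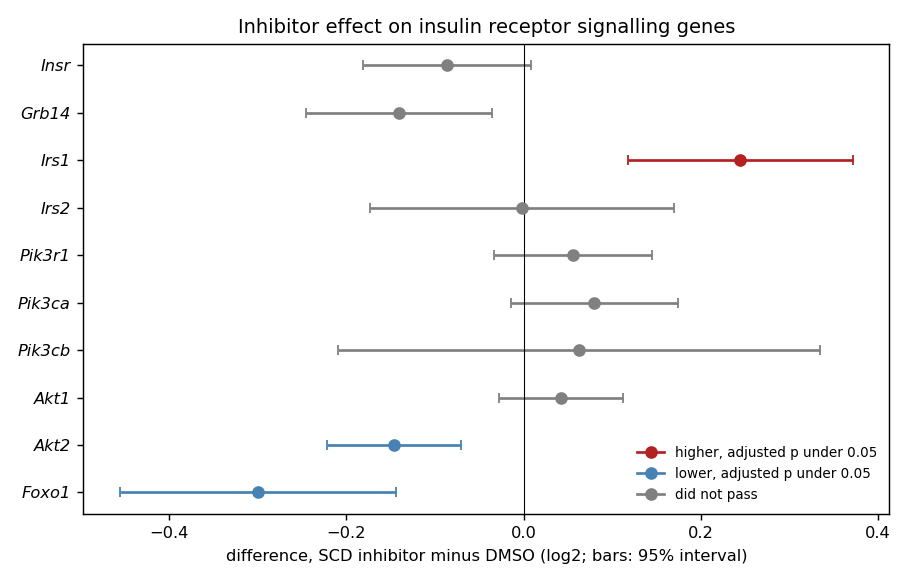
Difference in log2 expression, SCD inhibitor minus DMSO, with its 95% interval from limma, for the 10 genes from receptor (top) to transcription factor (bottom). Irs1 at 0.24 (red) passed as higher, Akt2 (brighter cluster) at -0.15 and Foxo1 at -0.30 (blue) passed as lower, and the grey genes did not pass.

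**Figure D3:**
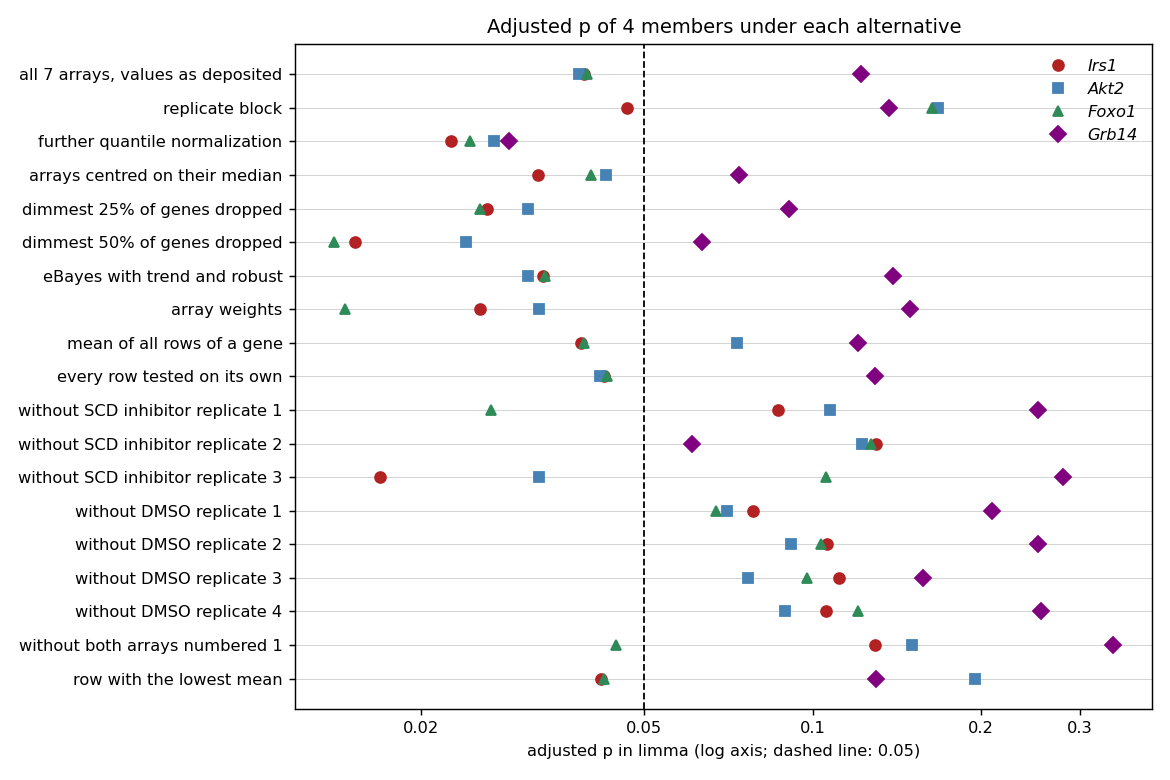
Adjusted p in limma (log axis) of Irs1, Akt2, Foxo1 and Grb14 with all arrays and under 18 alternatives, with a dashed line at 0.05. Irs1 and Foxo1 stay left of the line in 11 alternatives each and Akt2 in 8, and leaving out any DMSO array moves all 3 to its right.

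Markers of precursor cells and fibroblasts moved in the same comparison. Of 11 measured, 7 were called higher, against 3.62% of all genes, and 1 lower, against 4.37%, with a median difference of 0.32. Of all genes at mean levels of 7 or above, 16.3% were called in either direction. The 5 largest changes were Pdgfra (log2 0.89), Pdgfrb (0.51), Col3a1 (0.50), Col1a1 (0.41) and Col1a2 (0.35). Fn1 was the 1 that fell (log2 -0.26), while Thy1, Acta2 and Cd34 did not pass. The summed level of the 11 markers on the linear scale was 14008 to 14872 on the inhibitor arrays and 11644 to 12201 on the DMSO arrays. That of the adipocyte markers was 45950 to 47669 with the inhibitor and 47009 to 48343 in DMSO. The part of this in the changes of Irs1, Akt2 and Foxo1 was not tested, and in bulk RNA fewer cells of a type and less RNA per cell cannot be told apart.

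Paralogs were compared within each array, which asks whether 2 genes of a pair changed unequally. The log2 difference Irs2 minus Irs1 was -1.32, -1.41 and -1.45 on the inhibitor arrays and -1.19, -1.15, -1.10 and -1.16 on the DMSO arrays. It was lower on every inhibitor array than on any DMSO array, and the change was -0.25 (two-sided exact permutation test over 35 splits of the arrays, p = 0.0286, the smallest they can give, and adjusted p = 0.0429 over 3 pairs). Akt2 minus Akt1 was 1.11, 1.21 and 1.29 with the inhibitor and 1.44, 1.39, 1.36 and 1.38 in DMSO, a change of -0.19 with the same exact p of 0.0286 and adjusted p of 0.0429. With the dimmer Akt2 cluster the change was -0.12, and the exact permutation test gave the same adjusted p of 0.0429. In this test Irs1 and Irs2 changed unequally, as did Akt1 and either Akt2 cluster. Irs1 and the brighter Akt2 cluster were already apart between the groups on their own, so these contrasts partly restate their values. The dimmer Akt2 cluster overlapped between the groups and did not pass on its own. Akt1 read 10.26 on inhibitor array 1 and 10.15 on the other inhibitor arrays, which enters the contrast with either Akt2 cluster. The pairs were chosen with earlier results of these data known, and how often other pairs of genes come apart was not measured.

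The catalytic subunits gave another picture. Pik3cb minus Pik3ca was -1.63, -1.47 and -1.10 on the inhibitor arrays and -1.38, -1.39, -1.38 and -1.39 on the DMSO arrays. The DMSO arrays spanned less than 0.01 and the inhibitor arrays lay on both sides of them. The SD was 0.27 with the inhibitor (n = 3) and 0.0037 in DMSO (n = 4), and the means differed by -0.02 (exact permutation test, p = 0.886).

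**Figure D4:**
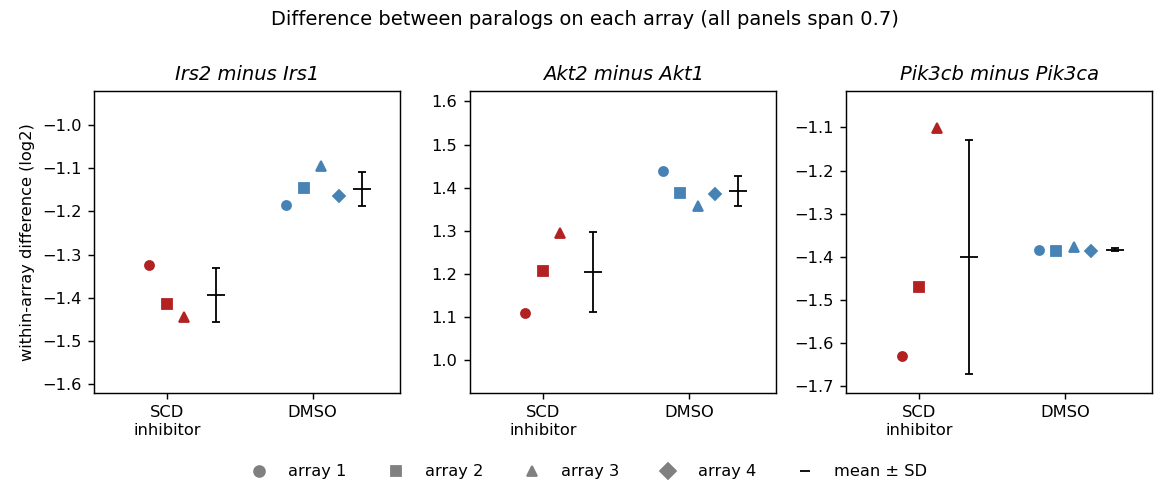
Difference in log2 level between paralogs on each array, SCD inhibitor (red, 3 arrays) left of DMSO (blue, 4 arrays), with the mean ± SD in black. The groups are apart for Irs2 minus Irs1 and Akt2 minus Akt1, while Pik3cb minus Pik3ca is nearly constant in DMSO (SD 0.0037) and spread with the inhibitor (SD 0.27).

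Around these 10 genes, 92 of 104 other pathway genes in 7 lists ordered by role were measured under 1 symbol. Of these 17 were called (18.5%, against 8.00% of all genes), 7 higher and 10 lower, and their median difference was 0.01. The gap between these shares varied with the handling of dim genes and was narrowest with the dimmest 50% dropped. At mean levels of 7 or above 16 of 66 pathway genes were called (24.2%), against 16.3% of all genes at such levels. With the dimmest 25% dropped it was 19 of 88 (21.6%), against 12.6%, and with the dimmest 50% dropped 18 of 74 (24.3%), against 21.1%. The text names 16 of them by rule, and 8 of the 16 kept their call in all 18 alternatives: Pik3r2, Trib3, Deptor, Mlst8, Pck1, Ppargc1a, Gadd45a and Klf15. The other 8 are given with the single arrays whose removal ended the call. With a block for the replicate number, Akt1s1, Eif4ebp1, Foxo4, Sesn1, Dusp6 and Braf lost it too. Their adjusted p in limma was then 0.128, 0.0696, 0.0585, 0.0588, 0.084 and 0.0629 in that order. Socs3 (0.0428) and Tbc1d1 (0.033) kept their call with the block.

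Among 20 adaptors and regulators of the receptor 1 rose, none fell and 19 did not pass, with a median of 0.01. The gene that rose was Socs3, a cytokine-induced inhibitor of receptor signalling, at 6.46 ± 0.075 (SD, n = 3) with the inhibitor and 6.18 ± 0.065 (SD, n = 4) in DMSO (log2 0.27). Its adjusted p in limma was 0.0521 without SCD inhibitor 3 and 0.0584 without DMSO 2, and its dimmer cluster gave a difference of -0.04. The related receptor Igf1r (log2 0.01) and the receptor phosphatase Ptpn1 (log2 0.04), named here after their values were seen, did not pass.

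Of 12 further genes of PI3-kinase and of the enzymes around its lipid product 1 rose and 11 did not pass, with a median of 0.02. Pik3r2, the regulatory subunit p85β, read 9.57, 9.53 and 9.43 with the inhibitor and 9.27, 9.14, 9.18 and 9.19 in DMSO. All inhibitor arrays were higher, and the difference was 0.31 (SE 0.042, adjusted p = 0.00633 in limma). Its adjusted p ran from 0.00212 to 0.0413 over the alternatives.

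Of 15 regulators and substrates of AKT 1 rose, 2 fell and 12 did not pass, with a median of 0.02. Trib3, a pseudokinase reported to bind and inhibit AKT and a target of the stress factor ATF4, read 8.02, 8.22 and 8.20 with the inhibitor and 9.79, 9.84, 9.88 and 9.70 in DMSO, 3.15-fold lower. Tbc1d1, a GTPase-activating protein of glucose transporter traffic, fell by 0.22 on the log2 scale, and its adjusted p in limma was 0.0707 without SCD inhibitor 3, 0.0511 without DMSO 2 and 0.0626 without DMSO 3. Akt1s1, which encodes the mTORC1 inhibitor PRAS40, rose by 0.25, and its adjusted p in limma was 0.0985 without SCD inhibitor 3, while with DMSO 1, 2, 3 or 4 left out it was 0.101, 0.103, 0.0862 and 0.115 in that order.

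Of 12 genes of the mTOR complexes and S6 kinase 2 rose, 1 fell and 9 did not pass, with a median of 0.04. Deptor, an inhibitor of mTOR, read 9.27, 9.40 and 9.22 with the inhibitor and 9.70, 9.86, 9.80 and 9.85 in DMSO, 1.42-fold lower (adjusted p = 0.0028 in limma). Mlst8, a subunit of both mTOR complexes, read 8.21, 8.40 and 8.28 with the inhibitor and 7.84, 7.92, 7.95 and 7.96 in DMSO, a difference of 0.38 (adjusted p = 0.00668 in limma). For both genes the groups were apart on all arrays. Eif4ebp1, a repressor of translation that mTORC1 inactivates and that is also an ATF4 target, rose by 0.30, and its adjusted p in limma was 0.0545 without SCD inhibitor 2 and 0.057 without SCD inhibitor 3.

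Beside Foxo1, 1 of 3 FOXO relatives fell. Foxo4 was at 6.86 ± 0.039 (SD, n = 3) with the inhibitor and 7.11 ± 0.091 (SD, n = 4) in DMSO (log2 -0.25). Its adjusted p in limma was 0.103 without SCD inhibitor 1, 0.0757 without SCD inhibitor 2, 0.121 without SCD inhibitor 3, 0.0917 without DMSO 2 and 0.093 without DMSO 3. Foxo3 (log2 0.01) and Foxo6 (log2 -0.04) did not pass.

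Of 20 genes known as FOXO targets in one tissue or another 5 fell, 1 rose and 14 did not pass, with a median of -0.04. The list also holds genes with other regulators, among them the cAMP pathway and nuclear receptors. Pck1, the cytosolic enzyme that makes phosphoenolpyruvate for glyceroneogenesis, was 4.24-fold lower, at 8.21, 8.10 and 8.12 with the inhibitor and 10.35, 10.21, 10.19 and 10.17 in DMSO. Ppargc1a, a coactivator of mitochondrial genes, was 2.74-fold lower, Gadd45a, a growth arrest gene, 2.07-fold lower, and Klf15, a transcription factor of glucose and amino acid use, 1.57-fold lower. Bcl6, a transcriptional repressor and outside the naming rule, fell by 0.26. Sesn1, an inhibitor of mTORC1, rose by 0.45, and its adjusted p in limma was 0.134 without SCD inhibitor 2, 0.139 without SCD inhibitor 3, 0.102 without DMSO 1, 0.115 without DMSO 3 and 0.106 without DMSO 4.

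Of 10 measured genes of the RAS and MAP kinase arm 1 rose, 1 fell and 8 did not pass, with a median of -0.02. Dusp6, a phosphatase of ERK, rose by 0.33, and its adjusted p in limma was 0.0514 without SCD inhibitor 1, 0.0858 without SCD inhibitor 2, 0.0832 without SCD inhibitor 3 and 0.0669 without DMSO 3. Braf, a kinase above ERK, fell by 0.22 and kept its call only without SCD inhibitor 2 among the fits without 1 array (adjusted p = 0.00975 in limma). Its adjusted p in limma was 0.122 without SCD inhibitor 1 and 0.148 without SCD inhibitor 3, while with DMSO 1, 2, 3 or 4 left out it was 0.113, 0.117, 0.115 and 0.095 in that order.

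**Figure D5:**
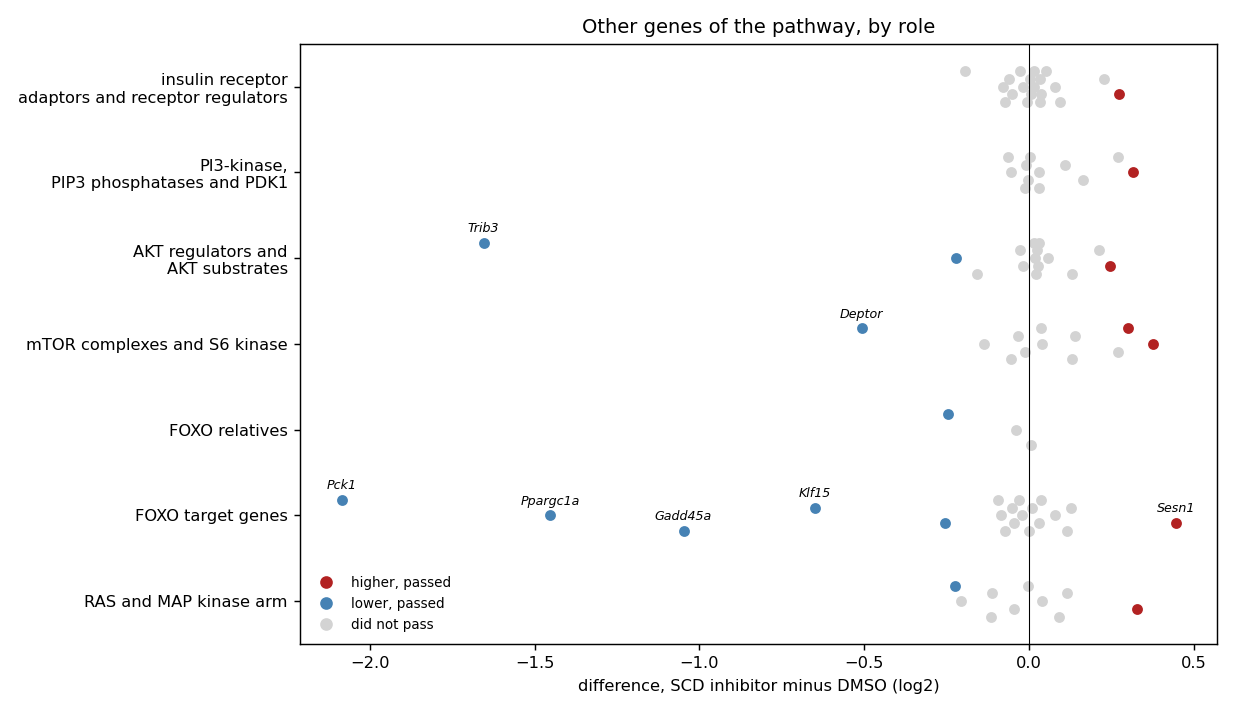
Difference in log2 expression, SCD inhibitor minus DMSO, of 92 other genes of the pathway in 7 lists, with genes that passed in red (higher) or blue (lower) and the others in grey. Most genes lie near 0, and Pck1, Trib3, Ppargc1a and Gadd45a stand furthest to the left.

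The genes whose levels ran most like those of the members that differed most were found by Pearson correlation over the 7 arrays, a description that the treatment itself shapes. Predicted genes and RIKEN clones were left out of this ranking. For Foxo1 they were Scnn1a (r = 0.989), Ptges (r = 0.986) and Ywhag (r = 0.980). For Irs1 they were Cks1b (r = 0.997), Mri1 (r = 0.991) and Sipa1 (r = 0.991). Among these genes Scnn1a, Ywhag and Sipa1 were not called (adjusted p of 0.0503, 0.0903 and 0.0507 in limma).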

How the data were processed

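RNA from 7 samples was measured on Affymetrix whole-transcript arrays, 100 ng per sample, per the labels' protocols. The deposited values are log2 expression levels per transcript cluster made by the authors with RMA, per the submitters' processing notes. The RMA version and any filter are not stated in the labels. The values themselves show the log2 scale, and no detection calls were used. No 2 arrays were identical, the labels give no batch, and the number of arrays limits the precision. SCD inhibitor 1 had a median over all clusters of 4.88, against 4.93 to 4.94 on the other arrays. It also had the lowest array weight (0.499, with DMSO 1 next at 0.583).

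Of 28996 clusters, 21218 had 1 symbol in the array annotation, 1881 several and 5897 were not listed. The first gave 18820 genes, with no filter on dim genes. A treatment effect was estimated from all 7 arrays by limma 3.58.1 (lmFit, then eBayes) under R 4.3.3, a step tested on simulated data, with 5 residual degrees of freedom. Paralog differences were tested by exact permutation over arrays. Promoters came from RefSeq GRCm38.p6, and all 10 genes matched RefSeq.

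The members, lists and tests were chosen with earlier results of these data known. Named were all members, from each list at most 5 called genes with the largest change, and 3 genes correlated with each of the 2 members that differed most. Alternatives covered a block for the replicate number, normalization, filters on dim genes, eBayes options, array weights, the choice of cluster and leaving out arrays. The labels do not say that replicate numbers mark a shared culture or day, so the numbers were not taken as pairs. Same-numbered samples' deviations from their group means correlated at 0.174, 0.138 and 0.0796. Those of differently numbered samples correlated at -0.171 to -0.0076, except SCD inhibitor 2 with DMSO 4 at 0.16. A shared origin of same-numbered samples is thus possible and was not tested, and with the block for the number 1 member was called.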

Additional observations from a re-analysis of the deposited data

Results flagged for a closer look

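Among 26 genes checked, 2 had a DMSO array far from the other 3 by Dixon's 95% limit on the gap over the range, and chance alone gives about 1 in 20 such groups. Pik3r1 read 10.46 on DMSO 1, and 10.56 on the other 3 DMSO arrays, which share 1 deposited value, so the ratio is 1. Gadd45a read 8.83 on DMSO 1, and the nearest DMSO array read 8.91 (ratio 0.867). Groups of 3 were not checked in this way.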

How the results depend on the processing

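Under the 18 alternatives, Irs1 and Foxo1 kept their call in 11 each and Akt2 in 8, and none of these 3 changed direction. Irs2 and Pik3cb, which passed nowhere, changed sign in some fits without 1 array, Irs2 also with a further quantile normalization and with arrays centred on their median. The number of members called was 3 with all arrays, 1 with the replicate block (896 genes called over all), 1 without both arrays numbered 1 (808 genes, chosen after seeing the data) and 0 to 2 in the fits without 1 array (949 to 1294 genes, against 1505 with all 7). Other settings raised the counts: a further quantile normalization gave 4 members and 2064 genes (1032 higher), arrays centred on their median 3 members and 2060 genes (1117 higher, against 682 of the 1505), and dropping the dimmest 25% or 50% of genes 3 members each and 1774 and 1989 genes. Centring shifted SCD inhibitor 1 the most, whose median was 4.88 against 4.93 to 4.94 on the other arrays. With the replicate block Irs1 kept its call (adjusted p = 0.0467 in limma) and Akt2 (0.167) and Foxo1 (0.163) did not. In the deviations from group means, SCD inhibitor 1 and 3 correlated best with their own numbers (0.174 and 0.0796). SCD inhibitor 2 correlated best with DMSO 4 (0.16) and next with its own number (0.138). The mean of all clusters gave Akt2 -0.11 (adjusted p = 0.0732 in limma). Socs3 reversed with the cluster of the lowest mean (-0.039, chosen after seeing the data). Irs2 minus Irs1 ranged from -0.28 to -0.22 without 1 array and was -0.29 without both arrays numbered 1. Akt2 minus Akt1 ranged from -0.23 to -0.14 and was -0.13. With fewer arrays the exact test cannot go below 0.0667 (2 against 4) or 0.1 (3 against 3), so these fits say nothing on the threshold. Fewer samples entered each of these fits, and beyond that the cause was not tested.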

Other observations

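The brighter cluster annotated as Akt2 has a number that falls between those of Vstm2a and Egfr, both on chromosome 11, while RefSeq (GRCm38.p6) places Akt2 on chromosome 7. The dimmer Akt2 cluster stands among genes of chromosome 7. Of 21183 clusters with 1 symbol, 5.21% lie between neighbours that are both on another chromosome. Among the members' 12 clusters the brighter Akt2 cluster alone does, and of the 2 Akt2 clusters only it was called, so the called value may not be that of Akt2.

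The same deposited value stood on 3 or more arrays for 5 of the 10 members, Insr, Irs2, Pik3r1, Pik3ca and Akt1. All members had a mean level of 7 or above, and of the 7278 genes at such levels 32.0% had such a repeated value. None of these 5 members was called.

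The spread of 2 members differed between the groups. For Irs2 the SD was 0.17 with the inhibitor and 0.0083 in DMSO, and for Pik3cb 0.26 and 0.049. Median SD over the 10 members was 0.072 with the inhibitor and 0.047 in DMSO. These values were noticed after the data were seen, and equality of the spreads was not tested.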
